A study of Mus musculus with 2 samples.

Results

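The nuclear-encoded genes of oxidative phosphorylation (OXPHOS) were followed in nuclei of the mouse subventricular zone (SVZ), the neurogenic layer along the lateral ventricles. Members were all genes whose symbol starts with Nduf, Sdh, Uqcr, Cox4, Cox5, Cox6, Cox7, Cox8 or Atp5, which gave 98 of the 32285 genes counted. By symbol, 47 belonged to complex I, 8 to complex II, 8 to complex III, 18 to complex IV and 17 to complex V. Of these, 85 were structural subunits, 12 were assembly factors (the Ndufaf and Sdhaf genes) and 1, Ndufb1-ps, carries a pseudogene symbol. All 98 were found by identifier in GENCODE release M21, and 3 of them (Ndufa1, Ndufb11 and Cox7b) lie on chromosome X.

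There were 2 single-nucleus libraries of snap-frozen SVZ from mice of postnatal day 7, 1 from mice with modeled intestinal perforation (MIP) and 1 from control mice. Mice were assigned to MIP or control on postnatal day 5, and tissue was taken 48 hours later. The labels name the breeding of both groups as standard and give no genotype, strain or agent. Since each group is a single library, nothing measures the spread between animals and no test was made. Every ratio compares these 2 libraries, not the conditions, and its 95% interval covers counting error only. How many animals entered a library is not given in the sources used here.

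Oxidative phosphorylation takes electrons from NADH at complex I and from succinate at complex II, passes them through complex III and complex IV to oxygen, and uses the proton gradient so made to drive ATP synthesis at complex V. Most subunits are encoded in the nucleus, translated in the cytoplasm and imported, while a small core is encoded by mitochondrial DNA (the mt- genes); complex II is the exception and has nuclear-encoded subunits only. Mature mRNA of these genes sits mainly in the cytoplasm, as does that of ribosomal protein genes, and mt- RNA is made inside mitochondria. A nucleus preparation therefore holds them to the extent that cytoplasm stays attached or free RNA enters a droplet, beside the unspliced nuclear RNA of the same genes. The levels of the 13 mt- genes and of 75 ribosomal protein genes are given beside the members as signs of cytoplasmic RNA.

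After filtering, 10940 MIP nuclei and 14579 control nuclei remained, with medians of 6029.5 and 5635 unique molecular identifiers (UMIs, one for each RNA molecule captured) and 83526244 and 114610196 UMIs in all. The libraries differed in more than the label. The MIP library held 39461 UMIs of Y-linked genes and 118 of Xist, and the control library held 36 and 200418, so sex and MIP cannot be told apart. Low-depth clusters held 6.49% of MIP nuclei and 24.1% of control nuclei, and haemoglobin genes were at 3.47 CPM (counts per 1000000 UMIs of the same library and class, the unit of all levels) in the MIP library and 27.4 in the control library. The libraries shared 115 cell barcodes, 79 of them among kept nuclei. Clusters were named from fixed markers, and the 9 classes that held 100 or more nuclei in both libraries were compared: microglia-, neuroblast-, astroglia-, cycling progenitor-, oligodendrocyte precursor-, differentiating oligodendrocyte-, spiny projection neuron-, interneuron- and excitatory neuron-like nuclei. They are called by the cell type alone from here on. The members, mt- and ribosomal protein genes were kept out of the genes that formed the clusters.

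OXPHOS UMIs made up a smaller share of all UMIs in the MIP library than in the control library, over all nuclei and in each of the 9 classes. Over all nuclei the members summed to 4353 CPM in the MIP library and 7056 in the control library. The log2 ratio of MIP to control was -0.70 (95% interval -0.70 to -0.69). Per nucleus this was 33.2 OXPHOS UMIs in the MIP library and 55.5 in the control library. Microglia had 8379 CPM in the MIP library and 12700 in the control library, a log2 ratio of -0.60 (-0.64 to -0.56), the furthest from 0 of the 9 classes. Oligodendrocyte precursors followed with 5778 in the MIP library and 8490 in the control library, a log2 ratio of -0.56 (-0.58 to -0.53). Neuroblasts had 8054 in the MIP library and 10460 in the control library (-0.38, -0.40 to -0.35), within counting error of astroglia and excitatory neurons. The remaining classes lay at -0.47 in interneurons, -0.46 in spiny projection neurons, -0.45 in differentiating oligodendrocytes, -0.44 in cycling progenitors, and -0.39 in excitatory neurons and in astroglia. No class interval reached 0.

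The signs of cytoplasmic RNA moved with this result in every class. Ribosomal protein genes, which encode the proteins of the cytosolic ribosome, were at 5744 CPM in the MIP library and 10140 in the control library over all nuclei, a log2 ratio of -0.82, and at ratios between -0.64 (microglia) and -0.39 (neuroblast) in the classes. The mt- genes were at 4193 in the MIP library and 6033 in the control library, a log2 ratio of -0.52, and between -0.65 (differentiating oligodendrocyte) and -0.35 (neuroblast) in the classes. Set against ribosomal protein genes, the members were not lower in the MIP library, while set against mt- genes they were lower over all nuclei and differed in direction between classes. There were 0.758 OXPHOS UMIs for each ribosomal protein UMI in the MIP library and 0.696 in the control library, and the log2 ratio of OXPHOS exceeded that of ribosomal protein genes by 0.12 over all nuclei and by 0.01 (neuroblast) to 0.18 (differentiating oligodendrocyte) in the classes. For each mt- UMI there were 1.038 OXPHOS UMIs in the MIP library and 1.17 in the control library over all nuclei, a log2 difference of -0.17, and the difference lay between -0.12 (microglia) and 0.21 (excitatory neuron) in the classes. The part of cytoplasmic RNA in the OXPHOS ratio was not tested.

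**Figure D1:**
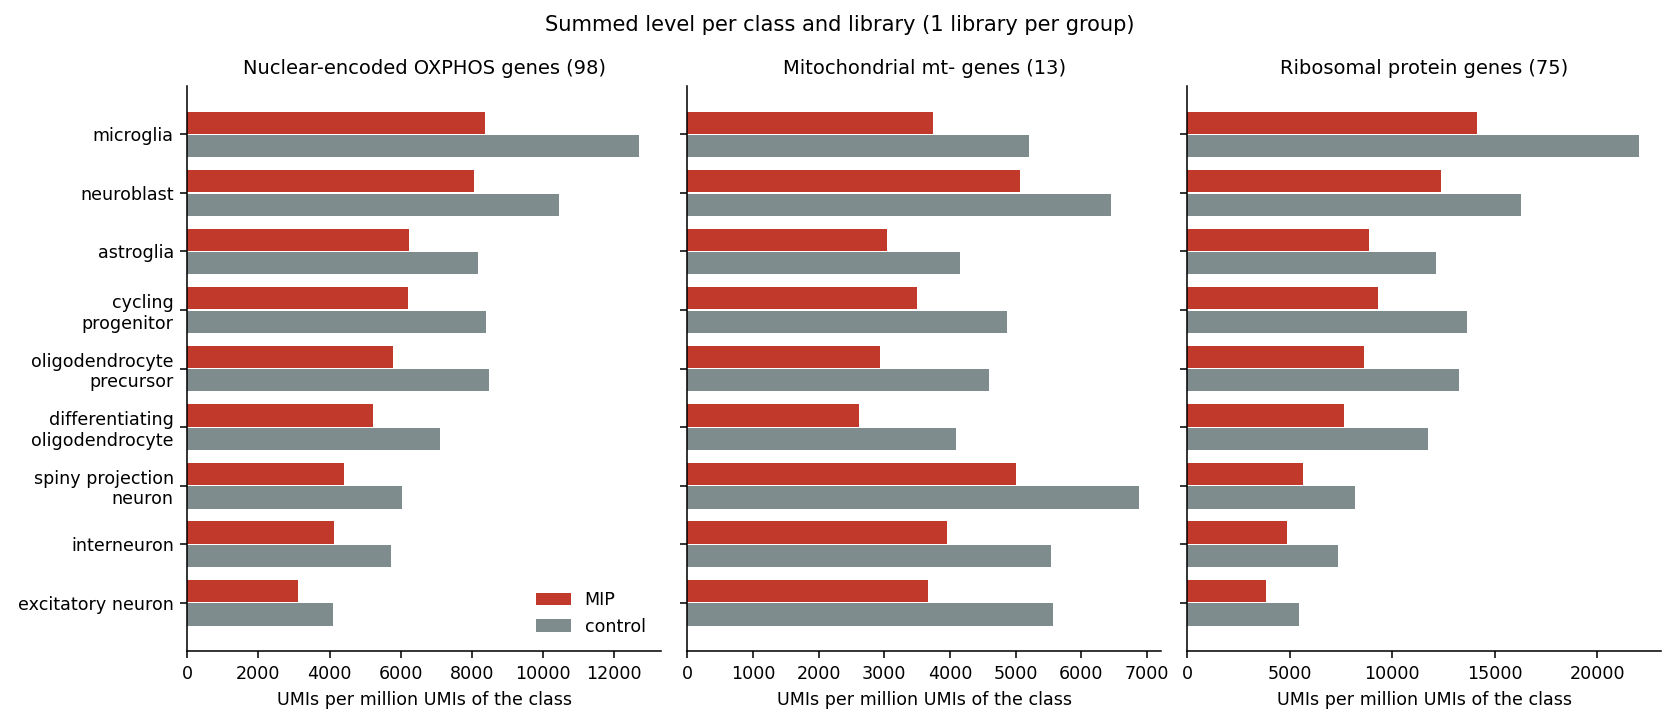
Summed level of the 98 OXPHOS genes, the 13 mt- genes and the 75 ribosomal protein genes in CPM of the class (x axes), for 9 classes, with the MIP library above the control library in each pair. Each MIP bar is shorter than its control bar in all 3 panels, as for microglia with 8379 and 12700 OXPHOS CPM.

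By summed UMIs, complex IV, cytochrome c oxidase, was furthest below a ratio of 1 and complex II, succinate dehydrogenase, was nearest to it. By the median over members, complex III (-0.87) lay slightly below complex IV (-0.85) over all nuclei, and complex II was again the nearest (-0.50). Over all nuclei complex IV had 843.5 CPM in the MIP library and 1521 in the control library, a log2 ratio of -0.85 (-0.86 to -0.84). Complex II had 190.4 in the MIP library and 240.3 in the control library, a ratio of -0.34 (-0.36 to -0.31). Complex V, the ATP synthase, had 1180 in the MIP library and 1929 in the control library (-0.71). Complex III, cytochrome bc1, had 358 in the MIP library and 565.8 in the control library (-0.66). Complex I, NADH dehydrogenase, had 1781 in the MIP library and 2801 in the control library (-0.65).

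This order of sums was close to constant over classes. Complex IV had the lowest summed ratio of the complexes in 7 of 9 classes. The exceptions were neuroblasts, where complex III was lowest (-0.48), and differentiating oligodendrocytes, where complex I was (-0.50). Complex II had the highest summed ratio in 9 of 9 classes. In excitatory neurons its -0.10 became 0.029 with TMM scaling, which rescales each library by the bulk of its genes. The interval of complex II held 0 in cycling progenitors (-0.01), oligodendrocyte precursors (-0.07), differentiating oligodendrocytes (0.16) and microglia (-0.20). No difference in complex II was thus detectable there at this depth. Medians over members gave another order in interneurons, at -0.75 for complex III, -0.65 for IV, -0.585 for II, -0.55 for I and -0.51 for V. In excitatory neurons the median of complex III (-0.61) lay just below that of complex IV (-0.60). In spiny projection neurons complex IV stood at 859.4 CPM in the MIP library and 1344 in the control library (-0.65, -0.67 to -0.62), beside complex I at -0.40 (-0.42 to -0.38). The 12 assembly factors, which help to build the complexes and are not part of them, had a ratio of -0.30 over all nuclei (263.4 in the MIP library and 324.5 in the control library), against -0.72 for the 85 subunits.

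**Figure D2:**
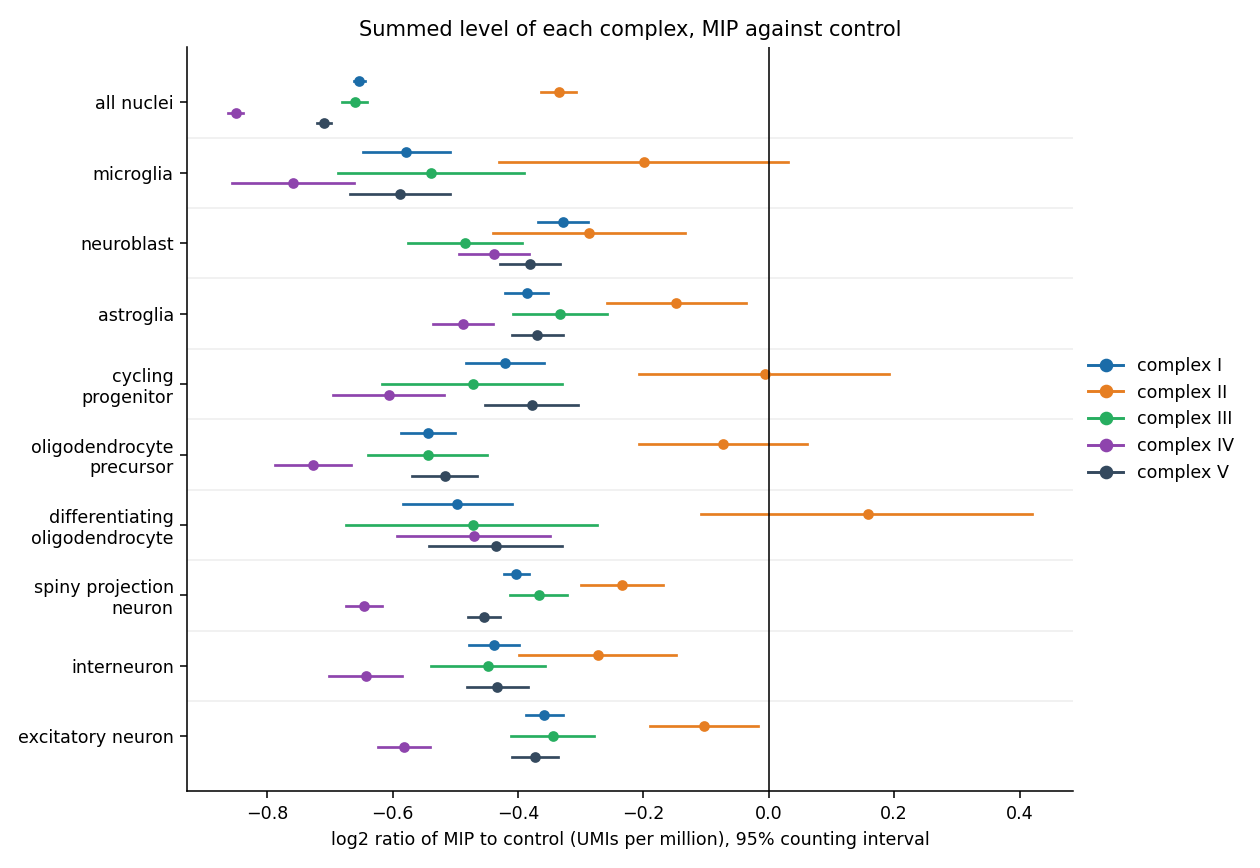
log2 ratio of MIP to control of the summed CPM of each complex (x axis), over all nuclei and in 9 classes (rows); points are ratios and lines 95% counting intervals. Complex II (orange) lies furthest to the right in each class, and complex IV (purple) furthest to the left in 7 of 9.

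Single members were counted as lower or higher at a ratio of 1.5 among those with at least 20 UMIs over both libraries. Over all nuclei 96 of the 98 members reached that minimum; Cox8b (3 and 6 UMIs in the MIP and control libraries) and Cox8c (1 and 2) did not. Of the 96, 72 were at least 1.5 times lower in the MIP library, or 75%, where 20.9% of the 22679 genes measured were. None was at least 1.5 times higher, where 2.9% of genes were. The members' median log2 ratio was -0.80, beside -0.20 for all genes measured. Complex I gave 33 of 47 lower members, complex II 4 of 8, complex III 6 of 8, complex IV 15 of 16 measured and complex V 14 of 17.

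Within classes the share of lower members stood clear of the background in some and close to it in others. Microglia had 48 of 90 measured members lower, beside 21.4% of genes. Oligodendrocyte precursors had 48 of 92, beside 15.4%. Interneurons had 41 of 93, beside 16.9%. Spiny projection neurons had 34 of 95, beside 15.8%, and differentiating oligodendrocytes 33 of 90, beside 17.1%. Cycling progenitors had 28 of 90, beside 13.7%, and excitatory neurons 27 of 93, beside 17.2%. In neuroblasts 15 of 91 members were lower, or 16.5%, beside 14.1% of genes, and in astroglia 14 of 92, or 15.2%, beside 15.2%. In neuroblasts and astroglia the count at this fold was thus at the background, although their median member ratios of -0.39 and -0.41 lay below the -0.04 and -0.11 of all genes. The only member counted as higher in any class was 1 in differentiating oligodendrocytes, Sdhaf2 (21 UMIs in the MIP library and 25 in the control library, log2 ratio 0.87, -0.04 to 1.76), beside 8.68% of genes. Higher genes made up 13.5% in microglia, 4.32% in oligodendrocyte precursors, 3.71% in interneurons, 3.43% in spiny projection neurons, 6.64% in cycling progenitors, 4.23% in excitatory neurons, 6.58% in neuroblasts and 4.84% in astroglia, with 0 members each.

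Of the 89 members with at least 20 UMIs in every class, 65 had a ratio below 1 in all 9 classes, and 22 had an interval wholly below it in all 9. In single classes between 53.1% (cycling progenitor) and 64.7% (excitatory neuron) of all genes measured had a ratio below 1. The share of all genes that were so in all 9 classes together is not given here. Those 22 held Cox4i1, Cox6b1, Cox6c, Cox7a2, Cox7c and Cox8a of complex IV, Uqcrb and Uqcr11 of complex III, and Atp5e, Atp5f1, Atp5g1, Atp5g3, Atp5h, Atp5j, Atp5l and Atp5md of complex V. From complex I they held Ndufa4, Ndufa13, Ndufab1, Ndufb5, Ndufb11 and Ndufc2, and from complex II none. Ndufa4 is counted here with complex I by its symbol, although its protein is now placed in complex IV. Among clusters, 31 had at least 20 nuclei in each library, and the summed OXPHOS interval lay below a ratio of 1 in 30 of them and above it in 0. The exception was a low-depth cluster with 22400 CPM in the MIP library (653 nuclei) and 22320 in the control library (84 nuclei).

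Complex I takes up electrons at its matrix arm and pumps protons with its membrane arm. Its 3 members with the most UMIs were Ndufa4, Ndufs4 and Ndufc2. Ndufa4 had 7350 UMIs (88 CPM) in the MIP library and 19498 (170.1 CPM) in the control library, a log2 ratio of -0.95 (-0.99 to -0.91). Ndufc2, an accessory subunit of the membrane arm, had 65.1 CPM in the MIP library and 120.5 in the control library (-0.89). Ndufs4, an accessory subunit of the matrix arm whose loss gives mice a Leigh-like encephalopathy, had 10232 UMIs (122.5 CPM) in the MIP library and 15367 (134.1 CPM) in the control library, a ratio of -0.13 (-0.17 to -0.09) that became 0.046 with TMM scaling. The members were therefore unequal: Ndufa6 (25.8 CPM in the MIP library and 53.3 in the control library, -1.05) and Ndufa1 (24.3 in the MIP library and 49.5 in the control library, -1.03) were among the 5 lowest of all members ranked by the upper end of the interval, and Ndufa10 stood above 0.

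The lower end held small accessory subunits, and the core subunits of the matrix arm lay nearer to 0. Ndufs1 and Ndufv1, which carry iron-sulfur clusters or the flavin site, had log2 ratios of -0.14 and -0.45, and Ndufs3, another core subunit, -0.34. Of the X-linked members, Ndufb11 had 27.3 CPM in the MIP library and 52.7 in the control library (-0.95), and Ndufa1 is given above. Of the Ndufaf assembly factors, Ndufaf7, a methyltransferase that modifies a complex I subunit, had 72.4 CPM in the MIP library and 76.8 in the control library (-0.08, -0.13 to -0.04, and 0.092 with TMM scaling), and Ndufaf3 was at -0.83.

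Complex II oxidises succinate and is also an enzyme of the citric acid cycle. Its flavoprotein Sdha had 5176 UMIs (62 CPM) in the MIP library and 7792 (68 CPM) in the control library, a log2 ratio of -0.13 (-0.18 to -0.08) that became 0.042 with TMM scaling. The iron-sulfur subunit Sdhb had 48.7 CPM in the MIP library and 58.4 in the control library (-0.26), and the membrane anchor Sdhc 22.5 in the MIP library and 27.8 in the control library (-0.31). The other anchor, Sdhd, had 17.5 in the MIP library and 28.6 in the control library (-0.71, -0.80 to -0.62). Its ratio thus lay with the sums of complexes V, III and I, nearest to complex V (-0.71), and apart from the other Sdh subunits. By class, Sdhb had 49.1 CPM in the MIP library and 71.3 in the control library in neuroblasts (-0.54, -0.87 to -0.21), while in excitatory neurons it had 45.8 in the MIP library and 43.7 in the control library and an interval that held 0 (0.07). The assembly factor Sdhaf1, which serves iron-sulfur insertion into Sdhb, was at -1.09, and Sdhaf2, which serves flavin insertion into Sdha, at -0.08.

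Complex III held both ends of the range. Uqcrb, a small subunit at the ubiquinone site, had 3062 UMIs (36.7 CPM) in the MIP library and 9102 (79.4 CPM) in the control library, a log2 ratio of -1.12 (-1.17 to -1.06), the lowest of all members. Uqcr11, another small subunit, had 40.6 CPM in the MIP library and 86.2 in the control library (-1.09). Uqcrh, the hinge protein, had 46.1 in the MIP library and 88.8 in the control library (-0.95), and Uqcrq 52.3 in the MIP library and 89.6 in the control library (-0.78). By contrast the core proteins, large subunits on the matrix side, lay near or above a ratio of 1. Uqcrc1 had 51.6 CPM in the MIP library and 55.7 in the control library (-0.11, -0.17 to -0.05, and 0.067 with TMM scaling). Uqcrc2 had 6587 UMIs (78.9 CPM) in the MIP library and 7821 (68.2 CPM) in the control library, a ratio of 0.21 (0.16 to 0.26), the highest of all members.

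Complex IV members lay close together, between log2 ratios of -0.998 (Cox6b1) and -0.56 (Cox7b2) among the 16 measured. Cox4i1, the common isoform of subunit IV, had 11733 UMIs (140.5 CPM) in the MIP library and 27533 (240.2 CPM) in the control library, a log2 ratio of -0.77 (-0.81 to -0.74). Cox7c had 124.3 CPM in the MIP library and 222.6 in the control library (-0.84), and Cox6c 116.9 in the MIP library and 223.7 in the control library (-0.94). Cox6c, a small nuclear-encoded subunit, was among the 2 lowest members in microglia, with 163.6 CPM in the MIP library and 376.6 in the control library (-1.20, -1.50 to -0.92), and in oligodendrocyte precursors, with 138.3 in the MIP library and 275.6 in the control library (-0.99). In neuroblasts it was at 225.3 in the MIP library and 321.6 in the control library (-0.51). The X-linked Cox7b had 76.4 CPM in the MIP library and 133.5 in the control library (-0.81), close to the complex as a whole.

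Members of complex V were unequal. Atp5a1, the alpha subunit, had 11257 UMIs (134.8 CPM) in the MIP library and 18395 (160.5 CPM) in the control library, a log2 ratio of -0.25 (-0.29 to -0.22). Atp5b, the catalytic beta subunit, had 123.3 CPM in the MIP library and 173.4 in the control library (-0.49). Atp5c1, the gamma subunit of the central stalk, had 86.4 in the MIP library and 118.4 in the control library (-0.45). Atp5e, the epsilon subunit of the same stalk, had 42.3 in the MIP library and 87.5 in the control library (-1.05). The Atp5g genes, which encode the same mature subunit c of the rotor ring, were at -0.78 (Atp5g1), -0.66 (Atp5g2) and -0.89 (Atp5g3).

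Against the general direction, 4 members had an interval above a ratio of 1 in at least 1 class: Uqcrc2, Ndufa10, Ndufs1 and Ndufs4. The same share over all genes is not given here. Uqcrc2 was higher in the MIP library in interneurons (87.5 CPM in the MIP library and 60.6 in the control library, log2 ratio 0.53, 0.32 to 0.74), excitatory neurons (70.1 in the MIP library and 53.4 in the control library, 0.39), spiny projection neurons (83.2 in the MIP library and 64.5 in the control library, 0.37) and astroglia (81.7 in the MIP library and 68.8 in the control library, 0.25). Its interval held 0 in the other classes. Ndufa10, an accessory subunit of the complex I membrane arm, was higher in the same neuron classes, with 65.2 in the MIP library and 49.9 in the control library in excitatory neurons (0.38, 0.24 to 0.53), 65.6 in the MIP library and 54.2 in the control library in spiny projection neurons (0.28), and 71.9 in the MIP library and 59.5 in the control library in interneurons (0.27). Thinned to equal depth, Ndufa10 in interneurons came to -0.057.

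Ndufs1 was higher in the MIP library in neuroblasts only, with 119.2 CPM in the MIP library and 89.7 in the control library (0.41, 0.18 to 0.64). The MIP library gave 96.2 and the control library 133.7 in differentiating oligodendrocytes (-0.47, -0.90 to -0.07). For Ndufs4 the interval lay above 0 in excitatory neurons (109 in the MIP library and 100.6 in the control library, 0.12) and below 0 in astroglia (113.5 in the MIP library and 137.1 in the control library, -0.27) and spiny projection neurons (119.2 in the MIP library and 130.8 in the control library, -0.13). Uqcrb and Cox6c, plotted beside these 4, were lower in the MIP library in all 9 classes.

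**Figure D3:**
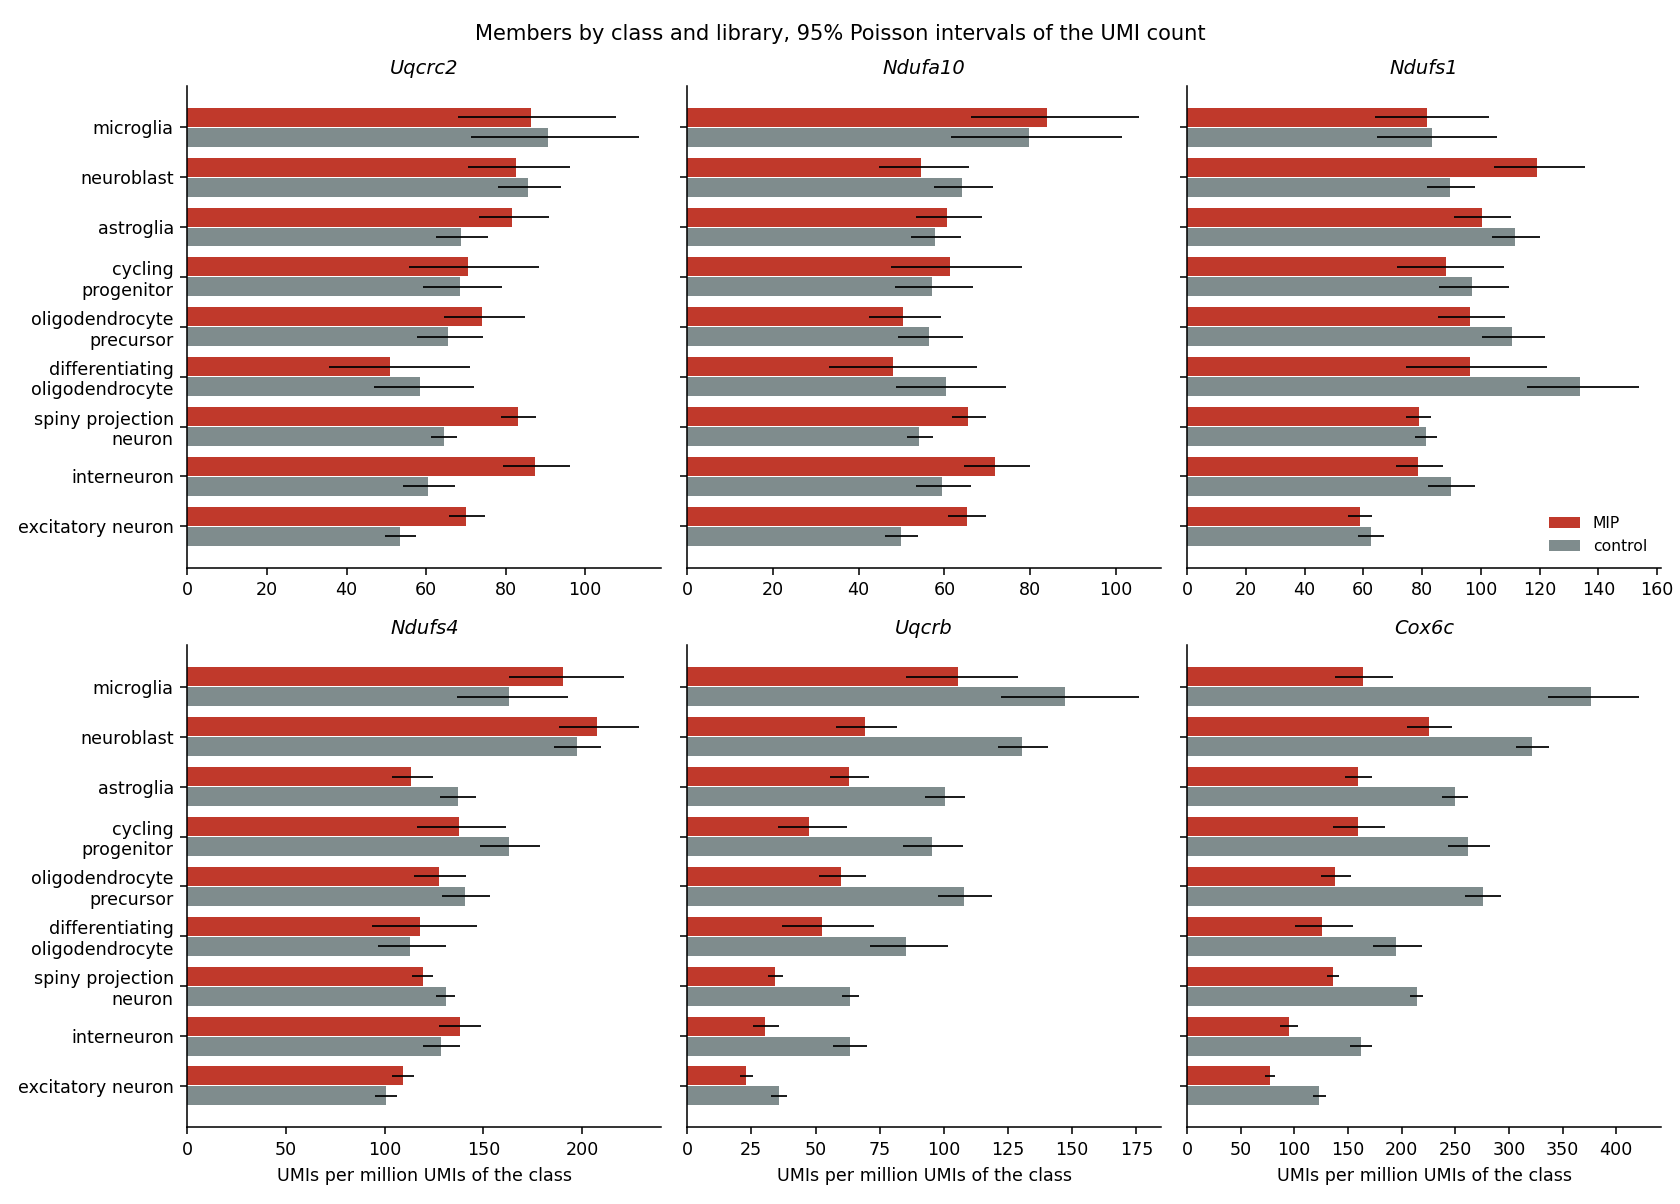
CPM of the class (x axes) of Uqcrc2, Ndufa10, Ndufs1, Ndufs4, Uqcrb and Cox6c in 9 classes, the MIP library above the control library in each pair; lines are 95% Poisson intervals of the UMI count. For Uqcrc2 the MIP bar is the shorter in 3 of the 9 classes. It is the longer in 3 neuron classes (87.5 and 60.6 in interneurons) and also, among others, in astroglia (81.67 and 68.77). For Uqcrb and Cox6c the MIP bar is the shorter in all 9 classes.

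Members with a short gene had lower ratios than members with a long one. Gene span, introns included, runs from 0.953 kb to 155.9 kb over the members, with a median of 7.42 kb, beside 20.1 kb for all genes measured and 3.23 kb for ribosomal protein genes. The 30 members under 5 kb had a median log2 ratio of -0.90, the 34 of 5 to 10 kb -0.80, the 16 of 10 to 20 kb -0.71, and the 12 of 20 to 50 kb -0.19. Above that, Sdhaf3 alone lay between 50 and 100 kb (-0.70), and 3 members were longer, with a median of -0.25. Other genes of the same span followed the same order with smaller sizes below 20 kb: their medians were -0.45, -0.34, -0.26 and -0.14 in the first 4 bins. Across the 96 members Spearman's rho between ratio and span was 0.55, and it lay between 0.26 (differentiating oligodendrocyte) and 0.55 (interneuron) in the classes; members share libraries and depth, so this is a description.

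Median span was 20.7 kb in complex II, 8.38 kb in complex I, 7.18 kb in complex V, 4.91 kb in complex III and 3.93 kb in complex IV. Complexes II and IV were at the ends of both span and summed ratio, but complex V had a lower summed ratio than complex III despite its longer median span. Uqcrc2 spans 24349 bases and Ndufa10 34851 bases, while Uqcrb spans 4762 bases. The long genes have more intron sequence, whose unspliced RNA is nuclear; whether introns were counted is not given in the sources used here, and the part of span in the ratios was not tested. Ndufa12, which spans 22724 bases and had a ratio of -0.86, is 1 member that goes against the order.

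**Figure D4:**
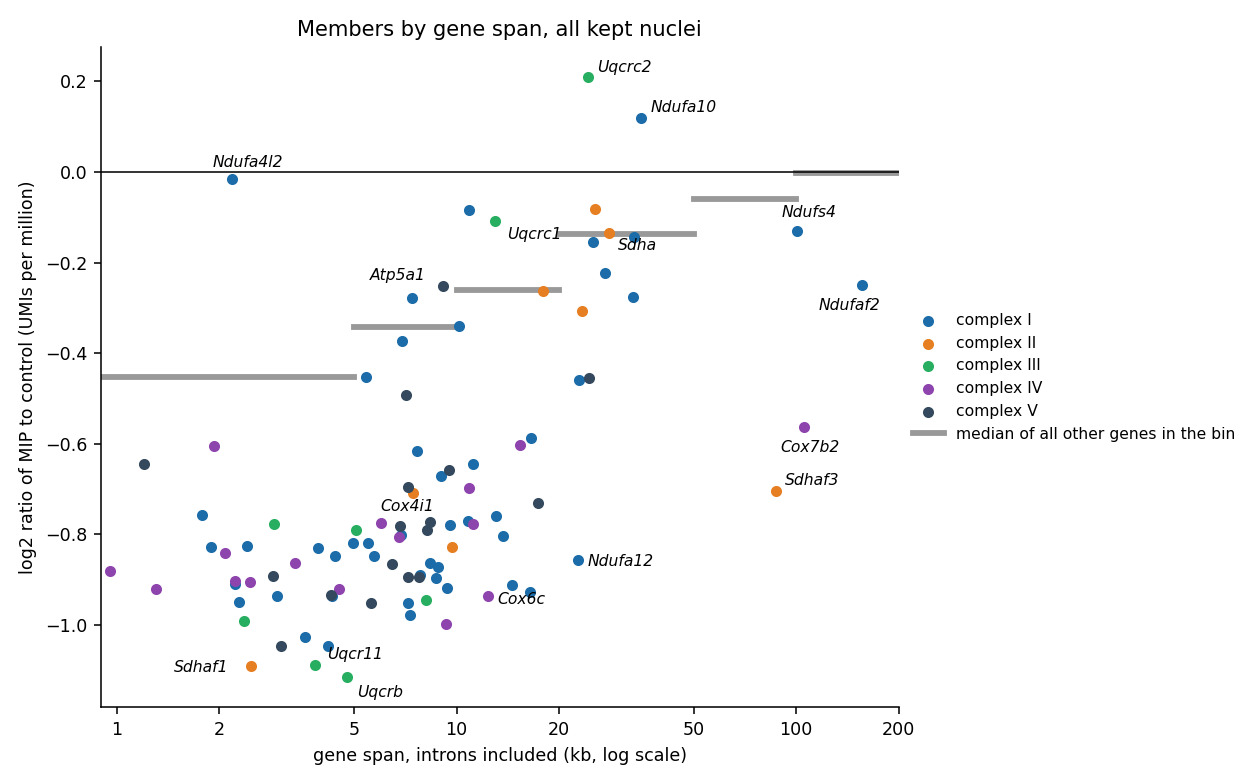
log2 ratio of MIP to control over all nuclei (y axis) against gene span in kb on a log scale (x axis) for the 96 members with at least 20 UMIs, coloured by complex; grey bars are the medians of all other genes in the same range of span. Most members under 20 kb lie below the grey bars, while those of 20 to 50 kb, with a median of -0.19, lie near theirs.

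Promoters of the members were read from RefSeq (GRCm38.p6, 250 bases before to 50 after the start), where 79 members had an entry (84 promoters in all) and 19 did not. Letters bound by regulators known for respiratory genes were searched on both strands: TGCGCATGC for NRF1, CCGGAAG for the ETS family with GABP, and AAGATGGCG for YY1. The ETS letters were in 22 of 84 promoters, or 26.2%, beside 12.8% of the 19689 promoters of measured genes, 8.86% of all 32851 promoters and 34.8% of the promoters of ribosomal protein genes. The YY1 letters were in 9.52% of member promoters, 2.05% of those of measured genes, 1.4% of all and 7.58% of those of ribosomal protein genes. The NRF1 letters were in 7.14% of member promoters, 2.21% of those of measured genes, 1.52% of all and 4.55% of those of ribosomal protein genes. At least 1 of these motifs was in 39.3% of member promoters and 11.2% of all, and no 2 different motifs overlapped in a member. A match is a description of these letters and not a bound site.

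Promoters of some members at the ends of the range are given from 130 bases before to 30 after the RefSeq start, to show which hold these letters. Capitals mark a motif on either strand. Coordinates are GRCm38.p6, minus strand, and sequences are written 5′ to 3′. Uqcr11 (chr10:80406792-80406951) and Atp5e (chr2:174464072-174464231) hold the ETS letters, Ndufa6 (chr15:82354262-82354421) the NRF1 letters, and Ndufa1 (chrX:37191209-37191368) and Ndufa10 (chr1:92473729-92473888) none of them. Uqcrb and Uqcrc2 had no entry. Sdhaf2, Ndufaf7 and Uqcrc1 were also among the 5 highest members over all nuclei, and their sequences are not printed. In the same window Sdhaf2 holds the ETS letters and Ndufaf7 none of the motifs, while in Uqcrc1 a motif starts at the last base. Motifs were thus found at both ends of the range.
Uqcr11: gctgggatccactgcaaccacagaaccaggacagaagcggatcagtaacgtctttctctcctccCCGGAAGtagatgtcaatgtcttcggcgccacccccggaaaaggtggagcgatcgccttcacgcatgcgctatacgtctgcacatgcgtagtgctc
Atp5e: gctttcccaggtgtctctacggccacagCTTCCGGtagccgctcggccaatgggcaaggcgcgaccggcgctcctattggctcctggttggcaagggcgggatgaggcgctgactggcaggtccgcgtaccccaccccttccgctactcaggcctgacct
Ndufa6: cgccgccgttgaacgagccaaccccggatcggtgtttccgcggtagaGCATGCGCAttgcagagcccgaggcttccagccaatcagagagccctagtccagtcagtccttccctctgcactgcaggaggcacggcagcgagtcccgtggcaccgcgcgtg
Ndufa1: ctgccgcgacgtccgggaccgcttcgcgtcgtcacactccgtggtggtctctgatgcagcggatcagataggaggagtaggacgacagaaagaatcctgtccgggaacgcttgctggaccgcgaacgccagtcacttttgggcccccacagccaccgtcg
Ndufa10: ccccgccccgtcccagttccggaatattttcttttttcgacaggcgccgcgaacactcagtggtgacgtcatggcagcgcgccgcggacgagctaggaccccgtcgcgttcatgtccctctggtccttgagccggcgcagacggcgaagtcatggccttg

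The genes of these regulators and their partners were close to a ratio of 1 as a group. Of 15 genes of mitochondrial biogenesis fixed as a list, 1 was at least 1.5 times lower over all nuclei, beside 20.9% of all genes measured. It was Polrmt, the mitochondrial RNA polymerase (-0.71). The median of the list was -0.07, and its sum had a log2 ratio of 0.05. Nrf1 had 127.8 CPM in the MIP library and 102 in the control library (0.33), and Gabpb1, a subunit of GABP, 38.1 in the MIP library and 31.3 in the control library (0.29). Yy1 was at 48.2 in the MIP library and 48.7 in the control library (-0.01). Of the coactivators, Ppargc1a had 72.9 in the MIP library and 89 in the control library (-0.29) and Ppargc1b 50.7 in the MIP library and 42.3 in the control library (0.26).

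The sums of neighbouring pathways lay nearer to a ratio of 1 than that of the members. No gene of these lists was higher by 1.5 times, beside 2.9% of all genes measured. At that fold 20.9% of all genes measured were lower in the MIP library, the share to set beside each count below. Among 38 measured genes of cytochrome c, cytochrome c1 and further assembly factors, 14 were lower. Cycs, cytochrome c itself, had 20.4 CPM in the MIP library and 45.5 in the control library (-1.16). Cyc1, cytochrome c1, is a complex III subunit that the symbol rule leaves out of the members, and was at -0.51. Atpaf1, an assembly factor of complex V, had 48.3 in the MIP library and 35.3 in the control library (0.45). Of 17 genes of the citric acid cycle, Ogdh (-0.66) and Fh1 (-0.60) were lower by that fold, and the sum was at -0.23. Of 18 entries of glycolysis, 5 were lower, with Gapdh at 70 in the MIP library and 135 in the control library (-0.95), and the sum was at -0.29. Of 15 import genes, 7 were lower, among them Tomm7 (-1.01) and Timm8b (-0.93), small proteins of the outer membrane and the intermembrane space, while Tomm40, the import channel, was at 0.18. All 13 mt- genes were below a ratio of 1, and 4 of them by the fold of 1.5, with mt-Co1, a core subunit of complex IV, at 565.7 in the MIP library and 782.3 in the control library (-0.47). Of 20 abundant cytoplasmic mRNAs outside these pathways, 17 were lower, with a sum at -0.75, and of 75 ribosomal protein genes, 74 were.

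UMIs of isoforms known from other tissues were found in both libraries. The muscle forms Cox6a2 and Cox7a1 had 55 and 46 UMIs in the MIP library and 139 and 96 in the control library, beside 3164 and 7895 of Cox6a1. The forms known from testis, Cox6b2 and Cox7b2, had 174 and 375 UMIs in the MIP library and 452 and 760 in the control library. Cox4i2 and Ndufa4l2, forms known for their response to low oxygen, had 49 and 31 UMIs in the MIP library and 109 and 43 in the control library over all nuclei. Mural-like nuclei, of which there were 10 in the MIP library and 17 in the control library, held 3 and 5 of those Cox4i2 UMIs and 5 and 12 of the Ndufa4l2 UMIs. That is 131.4 CPM of Ndufa4l2 in the MIP library and 146.8 in the control library, where spiny projection neurons had 0.12 and 0.18. Endothelial-like nuclei (12 in the MIP library and 21 in the control library) held 6 and 0 Ndufa4l2 UMIs, or 119 and 0 CPM. Astroglia held 9 Cox4i2 UMIs in the MIP library and 3 in the control library, or 2.17 and 0.46 CPM.

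Classes kept nearly the same order of summed OXPHOS level in both libraries. Microglia were highest and neuroblasts second, and spiny projection neurons, interneurons and excitatory neurons came last, in that order. In between, the order from the top was astroglia, cycling progenitors and oligodendrocyte precursors in the MIP library, and the reverse in the control library. Adjacent ones among these classes differed by 0.01 and 0.11 on the log2 scale in the MIP library and by 0.01 and 0.04 in the control library. Differentiating oligodendrocytes came next in both libraries, lower by 0.15 in the MIP library and by 0.20 in the control library. Per nucleus the order was nearly the reverse, with 42.1 OXPHOS UMIs in the MIP library and 72.9 in the control library in excitatory neurons, and 22.5 in the MIP library and 40.9 in the control library in microglia; the median depth was 11657 and 15083 UMIs in excitatory neurons and 2611 and 3048 in microglia. Across the 9 classes the OXPHOS level went with that of ribosomal protein genes (Spearman's rho 0.98 in each library) and not with that of mt- genes (0.05 in the MIP library and -0.18 in the control library). These points share their libraries and their totals.

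The share of the OXPHOS UMIs that a member took differed between classes. Ndufaf2 took 2.4% of OXPHOS UMIs in differentiating oligodendrocytes in the MIP library and 1.63% in the control library, and 0.566% and 0.527% in neuroblasts. Ndufa10 took 2.09% in excitatory neurons in the MIP library and 1.22% in the control library, and 0.678% and 0.613% in neuroblasts. Sdha took 1.75% and 1.48% in excitatory neurons, and 0.727% and 0.604% in neuroblasts. Cox4i1 varied little, with 3.74% and 3.6% in microglia and 3.1% and 3.22% in excitatory neurons. Ndufaf2, Ndufa10 and Sdha span 155909, 34851 and 28027 bases, and Cox4i1 spans 5986. The part of gene span and of depth in these shares was not tested.

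Each nucleus with at least 2000 UMIs was thinned to that number and grouped by its mt- UMIs. Shallower nuclei were left out, which kept 9742 of 10940 MIP nuclei and 10949 of 14579 control nuclei, and 546 of 737 MIP neuroblasts but 1268 of 1291 control neuroblasts. The thinned values thus differ from the others in the set of nuclei as well as in depth. Over all nuclei the OXPHOS level was higher in groups with more mt- UMIs in both libraries. With 6 or more mt- UMIs it was 5498 CPM in the MIP library (5784 nuclei) and 8111 in the control library (8404 nuclei), a log2 ratio of -0.56. With 1 to 5 it was 4794 in the MIP library (3713 nuclei) and 6892 in the control library (2439 nuclei), -0.52. With none it was 4376 in the MIP library (245 nuclei) and 5953 in the control library (106 nuclei), -0.44 (-0.55 to -0.34). Nuclei with no mt- UMI made up 2.51% of thinned MIP nuclei and 0.968% of thinned control nuclei. In excitatory neurons with no mt- UMI (33 nuclei in the MIP library and 13 in the control library) the levels were 2894 and 3000 CPM, a ratio of -0.05 (-0.44 to 0.35), and in astroglia (51 and 29 nuclei) 6088 and 7431, -0.29 (-0.47 to -0.11). The ratio without mt- UMIs was -0.44 in spiny projection neurons (26 and 12 nuclei), and between -1.06 (interneuron, 9 and 2 nuclei) and -0.28 (cycling progenitor, 8 and 8 nuclei) in the other classes. Of the 9 class intervals, those of excitatory neurons, cycling progenitors and differentiating oligodendrocytes held 0, and the others lay below it. Neuroblasts are among those others with 5 nuclei in the MIP library and 1 in the control library, and microglia with 7 and 3. These intervals count UMIs only and cannot measure the spread between so few nuclei. Ribosomal protein genes in nuclei with no mt- UMI were at 5631 CPM in the MIP library and 9080 in the control library, and with 6 or more at 7835 in the MIP library and 12180 in the control library.

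**Figure D5:**
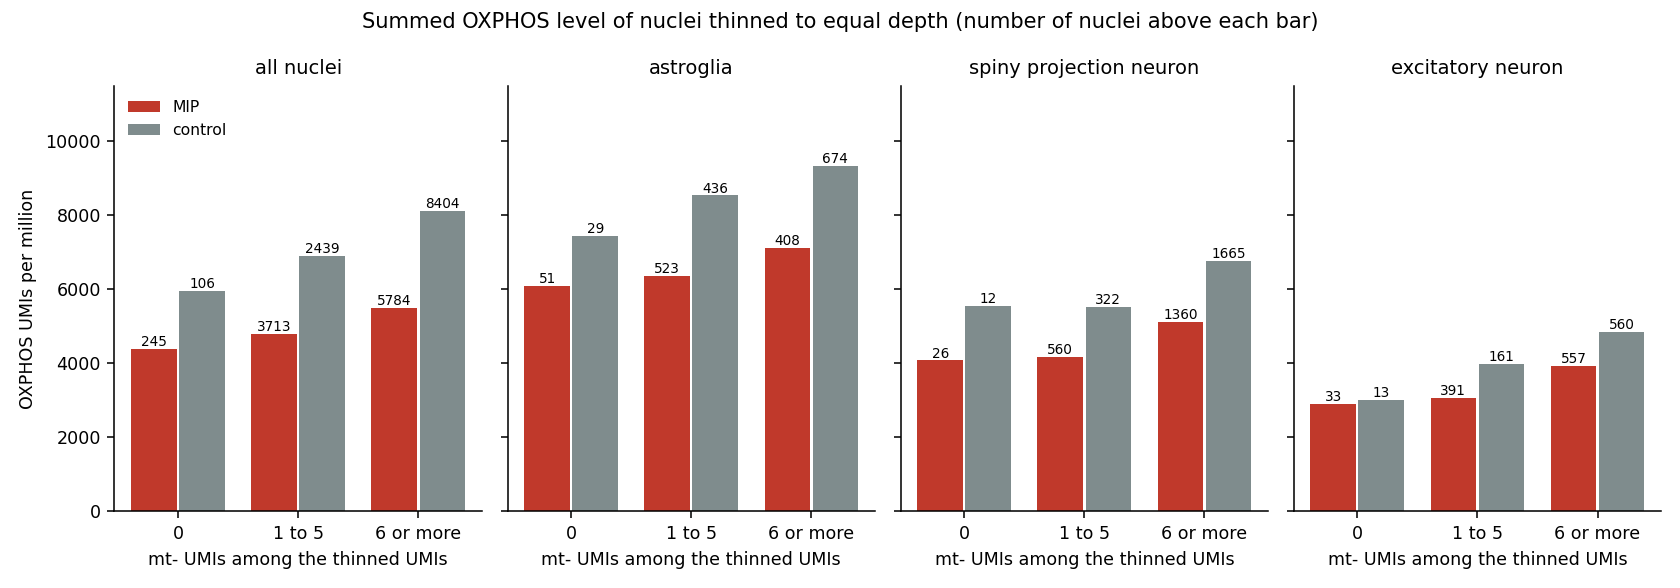
Summed OXPHOS level in CPM (y axis) of nuclei thinned to 2000 UMIs, grouped by their mt- UMIs (x axis), over all nuclei and in 3 classes, with the MIP bar left of the control bar and the number of nuclei above each. The MIP bar is the lower in each group shown, and in excitatory neurons with no mt- UMI the bars (2894 and 3000) lie within counting error.

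Low-depth clusters, which were given no cell type, held a larger OXPHOS share than any of the 9 classes. Their members summed to 22850 CPM in the MIP library (710 nuclei) and 32460 in the control library (3511 nuclei), a log2 ratio of -0.51, and 27 of 93 members were at least 1.5 times lower, beside 14.5% of genes, and none higher, beside 17.3%. These values largely compare different clusters, since 653 of the 710 MIP nuclei lay in 1 low-depth cluster and 3427 of the 3511 control nuclei in the other. Within the cluster mostly of the control library the level was 26870 CPM in the MIP library (57 nuclei) and 32780 in the control library (-0.29, -0.36 to -0.22), and within the other it was 22400 and 22320 (0.0057, -0.05 to 0.07). Over both clusters the ribosomal protein genes were at -0.51 and the mt- genes at 0.19, with the same limit. Without the low-depth clusters the ratio over all nuclei was -0.53. A list of 12 nuclear-retained RNAs had a summed ratio of 0.84 over both clusters and of -0.07 over all nuclei. In the classes its sum lay between -0.20 (interneuron) and 0.27 (oligodendrocyte precursor). The median over its genes was 0.01 over all nuclei, -0.08 in interneurons and -0.10 in oligodendrocyte precursors, so there the sum and the median differed in sign. Scaling by TMM raises the ratios by 0.18 over all nuclei and by 0.03 to 0.13 in the classes, which leaves every summed OXPHOS ratio below 0.

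For 32 members a counted gene overlaps on the opposite strand, for 1 on the same strand, and for 7 a RefSeq pseudogene carries their symbol. The strand setting of the counting is not given in the sources used here, so UMIs of such pairs cannot be told apart.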

How the data were processed

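The deposited files hold unnormalized UMI counts for each gene in each barcode. Per the file headers Cell Ranger wrote them, and the submitters' processing notes give its version as 5.0.1 and the build as mm10. No source used here gives the gene annotation, intron setting or barcode filter. Each library held 32285 genes, with 12366 barcodes and 100823376 UMIs in the MIP library and 16964 barcodes and 146730970 UMIs in the control library. Groups come from the labels.

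Barcodes with fewer than 500 genes (204 MIP, 0 control) or over 5% mt- UMIs (48 MIP, 114 control) were left out. Scrublet called 0 doublets by its own threshold, so the highest-scoring 0.8% per 1000 barcodes was removed (1174 MIP, 2271 control). Remaining nuclei were clustered together (Scanpy 1.11.5, 3000 variable genes without the members, mt-, ribosomal protein, haemoglobin and sex genes, 40 principal components, 20 neighbours, Leiden resolution 1), giving 38 clusters. A cluster was named where at least 3 of its class's markers were among its top 60 genes. Unnamed clusters held 31.5% of MIP nuclei and 24.9% of control nuclei, apart from low-depth ones. A cluster held mainly by 1 library may reflect that library: a neuroblast cluster lay mostly in the control library, and an unnamed cluster of high OXPHOS level was found there only.

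For each class, summed UMIs over the library's total in that class gave the level, and MIP over control the log2 ratio; its 95% interval is the exact conditional one for 2 Poisson counts, checked on simulated counts. Nuclei were not treated as replicates, and no p-value was computed. The members and lists were chosen with earlier results of these data known. Named members were the 3 with most UMIs in each complex, the 5 highest and 5 lowest over all nuclei and the 2 highest and lowest in each class, ranked on the end of the interval closer to equality and limited to members that reached 60 UMIs in 1 library, tissue-restricted isoforms, the X-linked members and the Sdh subunits. Others, such as Ndufv1, Atp5c1, Ndufs3, Ndufa12, Ndufaf3, Sdhaf3 and the single genes of other pathways, were picked after their values were seen. Gene spans are from GENCODE M21 and promoters from RefSeq GRCm38.p6. Protein sequences were not used here. TMM factors are from edgeR 4.0.16. No column of other samples was present.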

Additional observations from a re-analysis of the deposited data

Results flagged for a closer look

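Ndufs1 and Ndufs4 had intervals on opposite sides of a ratio of 1 in different classes, and the difference between classes was not tested. Ndufs1 had a log2 ratio of MIP to control of 0.41 in neuroblasts (238 UMIs in the MIP library and 478 in the control library) and of -0.47 in differentiating oligodendrocytes (66 and 199). Ndufs4 stood at 0.12 in excitatory neurons (1457 and 1318 UMIs) and at -0.27 in astroglia (471 and 887).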

How the results depend on the processing

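Which class lay nearest to 0 changed with the setting. The summed OXPHOS ratio kept its direction in 73 of 73 combinations of population and setting. Over all nuclei (-0.70) it was -0.67 without doublet removal, -0.68 with an mt- limit of 1%, -0.59 thinned to 2000 UMIs (shallower nuclei left out), -0.71 with a denominator free of mt-, ribosomal protein and member UMIs, -0.52 with TMM scaling, -0.53 without low-depth clusters and -0.72 with subunits only. Settings chosen after seeing the data gave -0.44 for thinned nuclei with no mt- UMI and -0.52 without low-depth clusters and the unnamed control-only cluster. TMM scaling raised the log2 ratios by 0.18 over all nuclei and by 0.03 to 0.13 in the classes. It gave -0.28 in astroglia, -0.35 in neuroblasts, -0.46 in oligodendrocyte precursors, -0.37 in differentiating oligodendrocytes, -0.51 in microglia, -0.34 in spiny projection neurons, -0.26 in excitatory neurons and -0.36 in interneurons.

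Without doublet removal the ratio was -0.43 in astroglia and in neuroblasts, -0.39 in cycling progenitors, -0.48 in spiny projection neurons and -0.41 in excitatory neurons. Thinning gave -0.43 in astroglia, -0.50 in neuroblasts, -0.58 in oligodendrocyte precursors, -0.69 in microglia and -0.44 in spiny projection neurons. Classes from marker scores gave -0.42 in astroglia and in neuroblasts, -0.48 in cycling progenitors, -0.54 in differentiating oligodendrocytes and -0.49 in excitatory neurons. The 1% limit gave -0.36 in excitatory neurons and -0.45 in interneurons, subunits only gave -0.48 in spiny projection neurons, and neuroblasts without their cluster mostly of the control library, a setting added later, gave -0.42. Other settings in the classes moved the ratio by less than its counting interval.

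Of the complex sums 364 of 365 values kept their direction. Complex II in excitatory neurons turned to 0.029 with TMM scaling. Of the named members 530 of 544 did. With TMM scaling, Ndufs4 came to 0.046, Sdha to 0.042, Ndufaf7 to 0.092 and Uqcrc1 to 0.067 over all nuclei. Thinned, Uqcrc1 came to 0.032, Cox7a1 to 0.17 and Ndufa10 in interneurons to -0.057. In the thinned nuclei with no mt- UMI, Ndufc2 came to 0.22, Sdha to 0.54, Atp5a1 to 0.18, Ndufaf7 to 0.039, Uqcrc1 to 0.38, Uqcrc2 to -0.44 and Ndufa10 to -0.039; the cause was not tested, and few UMIs stand behind each. Of the 72 members lower by 1.5 times over all nuclei, 6 were lower by 2 times. The share of all genes lower by 2 times is not given here.

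No paired analysis was possible because each group has 1 library, and no fit without a replicate exists for the same reason. Intervals cover counting error only, and depth limits single members in the smaller classes.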
